A study of Mus musculus with 6 samples.

Results

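A set of 26 transcripts was close to silent in 2-cell mouse embryos cultured with the solvent DMSO and was present in each library of embryos cultured with MS-444. The 26 were taken from the 29139 genes of the deposited count table. A gene was chosen when it had a CPM value (its counts divided by the library's total counts and multiplied by 1000000) of at least 6 in each MS-444 library and under 2 in each DMSO library. Predicted genes with a symbol of Gm and digits, symbols ending in Rik and pseudogenes were left out. The measured values of both groups therefore chose the transcripts, so their difference between MS-444 and DMSO is a description and carries no test. Of the 26 genes, 25 are annotated as protein coding and 1, Trac, as a constant segment of the T cell receptor.

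The embryos were of the ICR strain, and each library was made from 16 embryos. The MS-444 group was kept in KSOM, a culture medium for early embryos, that held 75 µM MS-444, and the DMSO group in KSOM that held 0.1% DMSO. The labels give no DMSO content for the MS-444 medium. There were 3 libraries in each group. The labels give neither the length of the culture nor whether libraries came from separate cultures or mothers, so the spread behind each p-value may be technical. The labels also say that samples were pooled before the cDNA was purified, without saying how they were told apart afterwards. Totals were 2637763, 3227804 and 3772141 counts in MS-444 replicates 1, 2 and 3, against 2669918, 4695866 and 4212893 counts in DMSO replicates 1, 2 and 3. The series title concerns arrest of embryonic development under MS-444, and the 26 transcripts address which near-absent RNAs are detected under the compound.

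MS-444 is a small molecule described as an inhibitor of HuR (gene Elavl1), a protein that binds AU-rich sequences in the 3′ untranslated regions (UTRs) of many mRNAs. In the mouse, the 2-cell stage is when the embryo's own genome is switched on broadly while RNA stored by the oocyte is degraded. Many genes of differentiated cells, such as those of T cell receptors, acrosome proteins or liver secretory proteins, are known for their work in other tissues. In bulk samples, fewer cells of a type and less RNA per cell cannot be told apart.

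Promoter sequences of 5 of the 26 genes are shown to place the letters of the promoter beside the levels given below. They are the stretches from 250 bases before to 50 bases after the annotated start in RefSeq, build GRCm38.p6, written 5′ to 3′ on the gene's strand. Capitals mark matches on either strand to 5 motifs, with N for any base. They were the TATA box, searched as TATAAA, the box of the letters CCAAT, the GC box searched as GGGCGG, the composite motif of CHOP and ATF4 searched as TGATGNAAT, and the antioxidant response element searched as TGACNNNGC. Mup3 and Prtn3 are shown because they are among the leading transcripts and hold no match to these letters. Variant forms of the motifs were not searched, so a promoter without a match may still hold such a form.
Mup3, chr4:62087268-62087567, minus strand: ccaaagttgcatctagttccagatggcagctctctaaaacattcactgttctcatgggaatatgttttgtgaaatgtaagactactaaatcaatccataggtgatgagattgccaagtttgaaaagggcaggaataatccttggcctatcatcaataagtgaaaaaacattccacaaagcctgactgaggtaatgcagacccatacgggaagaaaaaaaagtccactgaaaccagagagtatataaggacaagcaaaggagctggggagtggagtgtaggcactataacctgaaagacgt
Prtn3, chr10:79879417-79879716, plus strand: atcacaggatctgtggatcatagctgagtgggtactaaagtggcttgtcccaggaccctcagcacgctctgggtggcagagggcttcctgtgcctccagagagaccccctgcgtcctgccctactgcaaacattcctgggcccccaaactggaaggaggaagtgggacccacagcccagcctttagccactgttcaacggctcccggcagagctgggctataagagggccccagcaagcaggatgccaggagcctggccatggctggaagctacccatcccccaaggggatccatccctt
Rasl10a and Mafk are shown as the CpG-rich contrast, and each holds a pair of overlapping GGGCGG matches.
Rasl10a, chr11:5057878-5058177, plus strand: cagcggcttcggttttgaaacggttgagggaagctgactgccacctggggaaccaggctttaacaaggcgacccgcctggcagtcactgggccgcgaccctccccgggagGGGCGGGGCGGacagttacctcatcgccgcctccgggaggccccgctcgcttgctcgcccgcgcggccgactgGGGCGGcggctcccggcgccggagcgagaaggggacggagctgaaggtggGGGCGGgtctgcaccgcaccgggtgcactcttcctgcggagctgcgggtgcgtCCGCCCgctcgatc
Mafk, chr5:139791286-139791585, plus strand: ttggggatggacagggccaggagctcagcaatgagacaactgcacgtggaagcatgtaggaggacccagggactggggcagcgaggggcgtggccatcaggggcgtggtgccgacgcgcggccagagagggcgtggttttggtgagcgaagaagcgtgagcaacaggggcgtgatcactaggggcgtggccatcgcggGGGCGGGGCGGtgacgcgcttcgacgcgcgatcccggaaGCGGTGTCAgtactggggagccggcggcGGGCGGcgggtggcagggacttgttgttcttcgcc
Tbc1d9 is shown because it held the 1 match to TGATGNAAT.
Tbc1d9, chr8:83165102-83165401, plus strand: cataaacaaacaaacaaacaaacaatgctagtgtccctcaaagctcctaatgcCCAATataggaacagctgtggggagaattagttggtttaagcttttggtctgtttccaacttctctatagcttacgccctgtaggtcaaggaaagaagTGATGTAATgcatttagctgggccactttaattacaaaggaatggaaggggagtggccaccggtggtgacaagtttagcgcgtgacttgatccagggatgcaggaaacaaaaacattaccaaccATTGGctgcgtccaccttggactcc
The ratio of observed to expected CpG was 0.161 in the Mup3 promoter, 0.145 in that of Prtn3 and 0.330 in that of Tbc1d9, against 0.922 in that of Rasl10a and 0.991 in that of Mafk.

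In the MS-444 libraries the 26 transcripts had a median level of 9.39 CPM, ranging between genes from 6.60 to 65.7 CPM, against a median of 1.07 CPM and a range of 0.450 to 1.47 CPM in DMSO. The ratio of the mean CPM in MS-444 to that in DMSO had a median of 10.9-fold, from 5.96-fold in Dhrs13 to 54.3-fold in Mup3. Near-silent did not mean absent in DMSO. Each of the 26 had at least 5 counts over the 3 DMSO libraries together, with a median of 12, and only 3 of the 78 pairs of gene and DMSO library stood at 0 counts. The highest count of any of them in a DMSO library was 9, and the lowest in an MS-444 library was 16. The smallest ratio of summed counts among the 26 was 6.41, with the rule itself keeping such ratios high. PCR reads are not independent molecules, so an interval made from counts covers counting error only and leaves the choice of the genes out. Of the 26 transcripts, 14 averaged under 10 CPM in MS-444, 9 averaged 10 to 20 CPM and 3 averaged over 20 CPM.

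**Figure D1:**
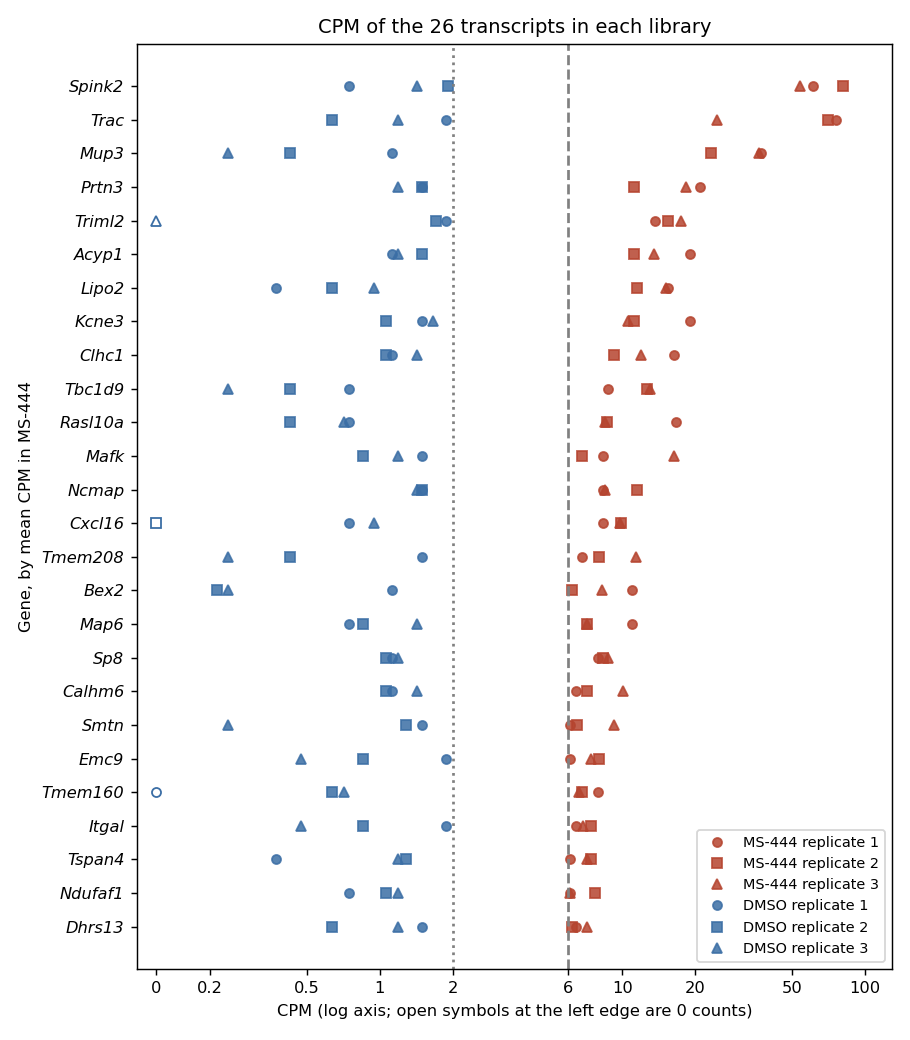
CPM of each of the 26 transcripts (rows, by mean level in MS-444) in the 3 MS-444 libraries (red) and the 3 DMSO libraries (blue), on a log axis, with open symbols for 0 counts; the dashed line is the floor of 6 CPM and the dotted line the ceiling of 2 CPM that chose them. Spink2, Trac and Mup3 stand apart at the upper end, and most others lie near the floor.

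Together the 26 transcripts summed to 417.4, 381.4 and 354.7 CPM in MS-444 replicates 1, 2 and 3, against 29.96, 23.85 and 23.74 CPM in DMSO replicates 1, 2 and 3. That was 384 ± 31.5 CPM in MS-444 and 25.9 ± 3.56 CPM in DMSO (SD, n = 3 each), a 14.9-fold ratio. Spink2, Trac and Mup3 alone gave 155 ± 34.3 CPM in MS-444 and 3.19 ± 0.484 CPM in DMSO. They made up 41.8%, 45.9% and 32.5% of the sum in the MS-444 libraries, against 12.5%, 12.5% and 12% in the DMSO libraries. The other 23 transcripts still summed to 230 ± 20.2 CPM in MS-444 and 22.7 ± 3.08 CPM in DMSO. The sum was steady across MS-444 libraries even where single genes were not. By gene, 11 of the 26 were highest in MS-444 replicate 1, 7 in replicate 2 and 8 in replicate 3. Within MS-444, 24 of the 26 stayed within 2-fold between their highest and lowest library, and Trac and Mafk did not. The rule required at least 6 CPM in each MS-444 library, so it left out genes carried by 1 library and favoured even levels.

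**Figure D2:**
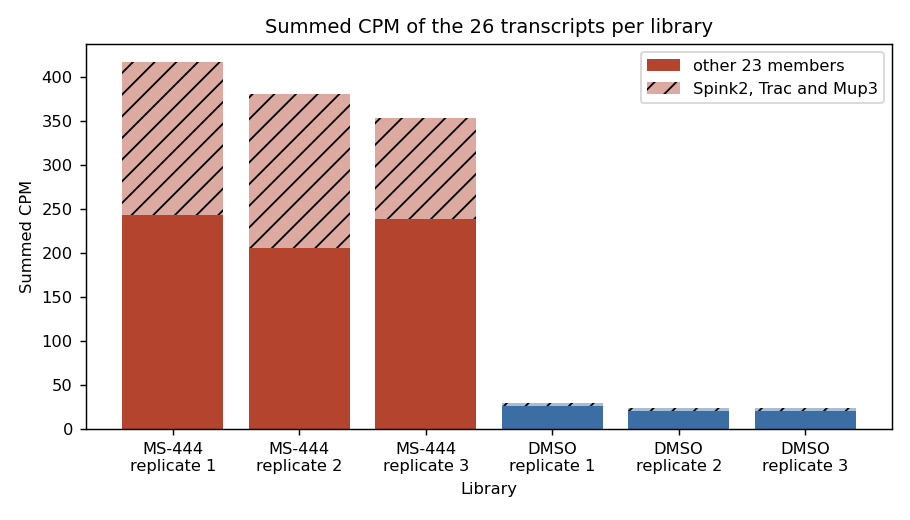
Summed CPM of the 26 transcripts in each library, with Spink2, Trac and Mup3 hatched and the other 23 solid, MS-444 in red and DMSO in blue. The MS-444 libraries reach 354.7 to 417.4 CPM and the DMSO libraries 23.74 to 29.96 CPM.

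Spink2 encodes a Kazal-type serine protease inhibitor of the sperm acrosome. It had 61.4, 81.5 and 54.1 CPM in MS-444 replicates 1, 2 and 3, against 0.749, 1.92 and 1.42 CPM in DMSO replicates 1, 2 and 3. The lowest MS-444 library was 28.2-fold above the highest DMSO library, the widest gap in the set. Divided by the length of its annotated exons, its level was 83.3 CPM per kilobase in MS-444 and 1.73 CPM per kilobase in DMSO. That was the highest level per kilobase of the 26 in MS-444, above Trac at 60.9, Mup3 at 30.3 and Acyp1 at 10.5 CPM per kilobase. The 7 other Spink genes of the table together had 0.758 to 1.86 CPM in MS-444 libraries and 0.375 to 1.06 CPM in DMSO libraries, and none was abundant enough to be tested. In edgeR's quasi-likelihood test over all genes, 1706 of 11864 genes tested were called higher in MS-444 (14.4%) and 1322 lower (11.1%) at an adjusted p under 0.05, with a median log2 fold change of 0.02. With library totals in place of TMM scaling, the median moved to 0.20 and the calls to 2179 higher and 881 lower. Apart from Spink2, which its own values chose, the table held 15 markers of sperm and spermatids, of which 3 were abundant enough to be tested and 1, Spesp1, was called higher and 0 lower. Spesp1, which encodes a protein of the sperm equatorial segment, had 60.3, 52.4 and 22.5 CPM in MS-444 replicates 1, 2 and 3, against 5.24, 1.06 and 1.19 CPM in DMSO (log2 fold change 4.13 ± 0.629 (SE), adjusted p = 0.00375 by edgeR's quasi-likelihood test). These 15 summed to 50.4 to 86.8 CPM in MS-444 libraries and 13.8 to 17.7 CPM in DMSO libraries. Most of the MS-444 sums came from Spesp1 and Ldhc, another of the 15. Ldhc had 13.6, 16.4 and 14.6 CPM in MS-444, against 8.24, 6.60 and 2.85 CPM in DMSO, and was not called (adjusted p = 0.0652, edgeR). Prm1, which encodes a protamine that packs sperm DNA, had 2, 3 and 4 counts in MS-444 and 0, 1 and 0 counts in DMSO. The part of other sperm RNA in the Spink2 value was not tested.

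Genes known from leukocytes formed a group of 4, Trac, Prtn3, Cxcl16 and Itgal. Trac, the constant region gene of the T cell receptor alpha chain, had 75.8, 70.3 and 24.7 CPM in MS-444 replicates 1, 2 and 3, against 1.87, 0.639 and 1.19 CPM in DMSO replicates 1, 2 and 3. MS-444 replicate 3 was 3.08-fold below replicate 1, the widest spread between MS-444 libraries in the set. Its 24.7 CPM was still 13.2-fold above the highest DMSO value. Prtn3, encoding proteinase 3 of neutrophil granules, had 20.9, 11.2 and 18.3 CPM in MS-444, against 1.5, 1.49 and 1.19 CPM in DMSO. Cxcl16, a chemokine that also exists as a membrane-bound scavenger receptor, had 8.34, 9.91 and 9.81 CPM in MS-444, against 0.749, 0 and 0.949 CPM in DMSO. Itgal, the alpha L chain of the leukocyte integrin LFA-1, had 6.44, 7.44 and 6.89 CPM in MS-444, against 1.87, 0.852 and 0.475 CPM in DMSO. The MS-444 values of Cxcl16 and Itgal lay close together, while those of Trac and Prtn3 were spread.

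Other leukocyte genes differed in level and in direction. Itgb2, the beta chain that pairs with alpha L, had 5, 1 and 5 counts in the MS-444 libraries and 0, 0 and 1 counts in the DMSO libraries. Trdc, the delta constant gene in the same locus as Trac, had 0, 1 and 3 counts in MS-444 and 1, 3 and 1 counts in DMSO. Ptprc, the pan-leukocyte surface phosphatase CD45, had 0, 1 and 0 counts in MS-444 and 0 counts in each DMSO library. Cd3d and Cd3g, subunits of the T cell receptor complex, each had 2, 3 and 3 counts in MS-444 and at most 2 in a DMSO library. Zap70, a kinase of the same receptor's signalling, had 0, 1 and 1 counts in MS-444 and 3, 13 and 7 counts in DMSO. Trbc1, the constant region gene of the beta chain, averaged 7.94 ± 3.13 CPM in MS-444 and 11 ± 2.86 CPM in DMSO (log2 fold change -0.65, adjusted p = 0.248, edgeR). Ighm, the constant region gene of the immunoglobulin M heavy chain, averaged 11.2 ± 0.241 CPM in MS-444 and 19 ± 4.01 CPM in DMSO (log2 fold change -0.95, adjusted p = 0.0526, edgeR). Lck, another kinase that acts downstream of the T cell receptor, stood apart from these. It had 22.7, 20.4 and 28.6 CPM in MS-444, against 3.37, 1.92 and 1.90 CPM in DMSO (log2 fold change 3.17 ± 0.395 (SE), adjusted p = 0.00248, edgeR). Apart from Trac, which its own values chose, the table held 13 lymphocyte markers, of which 3 were tested and 1, Lck, was called higher and 0 lower. These 13 summed to 47.0 to 59.1 CPM in MS-444 libraries and 35.2 to 42.4 CPM in DMSO libraries. Lck alone gave 20.4 to 28.6 CPM of that in MS-444 libraries and 1.90 to 3.37 CPM in DMSO libraries. The higher sum in MS-444 thus rested on Lck and not on the list as a whole.

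Mup3 and Lipo2 belong to gene families whose members resemble each other closely, so reads may be shared between copies. Mup3, a major urinary protein of the lipocalin family that is secreted by the adult liver, had 37.2, 23.2 and 36.6 CPM in MS-444 replicates 1, 2 and 3, against 1.12, 0.426 and 0.237 CPM in DMSO. It had the largest ratio of the 26, 54.3-fold. Its DMSO values rest on 6 counts in all, and the counting interval of the ratio of summed counts ran from 28.3 to 171. The 8 other Mup genes in the table stayed at 2.65 to 10.1 CPM together in MS-444 and 2.61 to 8.52 CPM in DMSO. Apart from Mup3, the table held 7 liver markers, of which 0 were abundant enough to be tested. These 7 summed to 0.530 to 9.48 CPM in MS-444 libraries and 1.42 to 2.62 CPM in DMSO libraries, with Alb, the serum albumin gene, at 0, 1 and 0 counts in MS-444 and 0, 1 and 0 counts in DMSO. Ttr, transthyretin, had 19, 0 and 1 counts in MS-444 and 0, 0 and 2 counts in DMSO.

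Lipo2, of the acid lipase family, had 15.5, 11.5 and 15.1 CPM in MS-444 replicates 1, 2 and 3, against 0.375, 0.639 and 0.949 CPM in DMSO replicates 1, 2 and 3. Its neighbour and relative Lipo4 had 16.7, 4.96 and 6.10 CPM in MS-444, against 0.375, 0.639 and 0.475 CPM in DMSO (log2 fold change 3.89 ± 0.690 (SE), adjusted p = 0.00591, edgeR). Lipo3, which overlaps Lipo2 on the same strand, averaged 19.8 ± 3.20 CPM in MS-444 and 12.4 ± 3.79 CPM in DMSO and did not pass the test (log2 fold change 0.49, adjusted p = 0.309). Lipo2 and Lipo4 were thus low in DMSO in each library, and Lipo3 was not.

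Genes of regulators were Mafk, Sp8 and Triml2. Mafk, a small Maf protein that binds DNA as a dimer with NRF2 or BACH proteins, had 8.34, 6.82 and 16.4 CPM in MS-444, against 1.5, 0.852 and 1.19 CPM in DMSO. MS-444 replicate 3 was 2.41-fold above replicate 2. Of 6 genes of its dimer partners and other small Maf proteins, all tested, 0 were called higher and 1 lower. Bach2, that partner and a repressor, fell to 11.6 ± 3.26 CPM in MS-444, against 29.9 ± 10.2 CPM in DMSO (log2 fold change -1.54, adjusted p = 0.0142, edgeR). That call was lost without MS-444 replicate 2, at -1.50. Maff, another small Maf gene, had 4.05 ± 0.826 CPM in MS-444 and 1.04 ± 0.780 CPM in DMSO (adjusted p = 0.0574, edgeR). Bach1, Nfe2l1, Nfe2l2 and Mafg did not pass either, with adjusted p-values of 0.621, 0.917, 0.517 and 0.914 by edgeR. Sp8, a zinc finger transcription factor of limb and forebrain development, had 7.96, 8.36 and 8.75 CPM in MS-444, against 1.12, 1.06 and 1.19 CPM in DMSO. It had the smallest spread between MS-444 libraries, 1.10-fold. Of 4 related Sp genes looked at, 2 were abundant enough to be tested, Sp6 and Sp9. Sp6 was higher, at 21.9 ± 7.71 CPM in MS-444 and 6.50 ± 2.99 CPM in DMSO (log2 fold change 1.60, adjusted p = 0.0248, edgeR). The call of Sp6 was lost without MS-444 replicate 2 or 3 or DMSO replicate 2 or 3, with log2 fold changes of 1.26 to 1.55. Sp9 averaged 5.82 ± 1.86 CPM in MS-444 and 5.01 ± 3.87 CPM in DMSO (log2 fold change -0.01, adjusted p = 0.990, edgeR), with a sign that turned under 6 of 11 alternatives, library totals among them. Sp5 had 1, 1 and 1 counts in MS-444 and 3, 0 and 10 counts in DMSO, and Sp4, the tested gene next to Sp8, did not pass (adjusted p = 0.367, edgeR). Triml2, a protein related to the tripartite motif family, had 13.6, 15.5 and 17.5 CPM in MS-444, against 1.87, 1.70 and 0 CPM in DMSO. Its nearest tested neighbour Zfp42, which encodes the pluripotency marker REX1, had 51.1 ± 12 CPM in MS-444 and 10.2 ± 5.82 CPM in DMSO (log2 fold change 2.17, adjusted p = 0.00790, edgeR).

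Genes of membrane proteins were Kcne3, Calhm6, Tspan4 and Ncmap. Kcne3, an accessory subunit of voltage-gated potassium channels, had 19, 11.2 and 10.6 CPM in MS-444, against 1.5, 1.06 and 1.66 CPM in DMSO. Kcnq1, a pore subunit that it modulates, averaged 3.38 ± 0.690 CPM in MS-444 and 5.39 ± 2.77 CPM in DMSO and did not pass the test (adjusted p = 0.216, edgeR). Calhm6, of the calcium homeostasis modulator family of channels, ranged from 6.44 to 10.1 CPM in MS-444 and reached at most 1.42 CPM in DMSO. Tspan4, a tetraspanin, had 6.07, 7.44 and 7.16 CPM in MS-444, against 0.375, 1.28 and 1.19 CPM in DMSO. Of 10 other Tspan genes tested, 0 were higher and 2 lower in MS-444, Tspan14 (log2 fold change -1.54, adjusted p = 0.00915, edgeR) and Tspan12 (-1.39, adjusted p = 0.0122, lost at -1.25 without MS-444 replicate 3). Ncmap, a myelin-associated membrane protein of Schwann cells, ranged from 8.34 to 11.5 CPM in MS-444 and reached at most 1.5 CPM in DMSO. All 3 DMSO libraries gave it nearly the same value, 1.47 ± 0.0407 CPM.

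Genes of small GTPase signalling were Rasl10a and Tbc1d9. Rasl10a, a Ras-like small GTPase, had 16.7, 8.67 and 8.48 CPM in MS-444, against 0.749, 0.426 and 0.712 CPM in DMSO, with MS-444 replicate 1 above the others. Tbc1d9, whose TBC domain is typical of proteins that activate Rab GTPases, had 8.72, 12.7 and 13.0 CPM in MS-444, against 0.749, 0.426 and 0.237 CPM in DMSO. Of 19 other Tbc1d genes tested, 1 was higher and 2 lower in MS-444. Tbc1d15 averaged 1436 ± 280 CPM in MS-444 and 4165 ± 450 CPM in DMSO (log2 fold change -1.71, adjusted p = 0.00270, edgeR). Tbc1d19 was lower, with a log2 value of -1.84 (adjusted p = 0.00313, edgeR). Tbc1d12 had one of 1.56 (adjusted p = 0.0201, edgeR), lost without MS-444 replicate 1, DMSO replicate 2 or DMSO replicate 3, at 1.03 to 1.46. The other 16 tested relatives did not pass.

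Genes of the cytoskeleton and trafficking were Map6, Smtn and Clhc1. Map6, a protein that stabilises microtubules, ranged from 7.13 to 11 CPM in MS-444 and reached at most 1.42 CPM in DMSO. Of 6 other Map genes tested, 0 were higher and 3 lower, Map7 (log2 fold change -1.57, adjusted p = 0.00749, edgeR), Map9 (-1.47, adjusted p = 0.00744) and Map1b (-0.81, adjusted p = 0.0443). The call of Map1b was lost with library totals and without MS-444 replicate 2 or 3 or DMSO replicate 2 or 3, at -0.62 to -0.91. Smtn, the smooth muscle actin-binding protein smoothelin, had 6.07, 6.51 and 9.28 CPM in MS-444, against 1.5, 1.28 and 0.237 CPM in DMSO. Clhc1, named for a clathrin heavy chain linker domain, had 16.3, 9.29 and 11.9 CPM in MS-444, against 1.12, 1.06 and 1.42 CPM in DMSO. It overlaps the ribosomal protein gene Rps27a on the opposite strand, which averaged 158 ± 76.8 CPM in MS-444 and 63.6 ± 42.3 CPM in DMSO (adjusted p = 0.141, edgeR). The sources used here do not say whether strand was used in counting, so reads of Clhc1 and Rps27a in the overlap cannot be told apart.

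Genes of the endoplasmic reticulum and mitochondria were Tmem208, Emc9, Ndufaf1 and Tmem160. Tmem208, a membrane protein of the endoplasmic reticulum, had 6.82, 8.06 and 11.4 CPM in MS-444, against 1.5, 0.426 and 0.237 CPM in DMSO. Emc9, a subunit of the complex that inserts membrane proteins there, had 6.07, 8.06 and 7.42 CPM in MS-444, against 1.87, 0.852 and 0.475 CPM in DMSO. It had the narrowest gap of the 26, with its lowest MS-444 library 3.24-fold above its highest DMSO library. Of 7 other Emc genes tested, 2 were higher and 0 lower, Emc3 (log2 fold change 1.30, adjusted p = 0.0111, edgeR, lost at 1.13 without MS-444 replicate 2) and Emc7 (1.26, adjusted p = 0.0290). The call of Emc7 was lost without any 1 of the MS-444 libraries or without DMSO replicate 3, at 0.94 to 1.35. Emc9 overlaps Psme1, a subunit of the immunoproteasome-associated PA28 activator, on the opposite strand. Psme1 had 6.82, 5.89 and 7.16 CPM in MS-444, against 1.12, 1.06 and 0 CPM in DMSO (log2 fold change 3.0 ± 0.698 (SE), adjusted p = 0.0138, edgeR, lost without MS-444 replicate 2 or 3 at 3.0 and 2.94). Psme2, the other subunit and the next gene tested, had 18.8 ± 4.44 CPM in MS-444 and 3.02 ± 0.958 CPM in DMSO (log2 fold change 2.48, adjusted p = 0.00475, edgeR). Reads in the overlap of Emc9 and Psme1 cannot be told apart without strand.

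Ndufaf1, an assembly factor of respiratory complex I, had 6.07, 7.75 and 6.10 CPM in MS-444, against 0.749, 1.06 and 1.19 CPM in DMSO. Of 6 other Ndufaf genes tested, 2 were higher and 0 lower. Ndufaf5 had 49.2 ± 8.90 CPM in MS-444 and 8.15 ± 0.817 CPM in DMSO (log2 fold change 2.42, adjusted p = 0.00257, edgeR). Ndufaf7 was higher by 0.94 on the log2 scale (adjusted p = 0.0493, edgeR), and its call was lost without any 1 of the 6 libraries, at 0.74 to 1.09, and with no filter or median-ratio scaling. Tmem160, a mitochondrial membrane protein, had 7.96, 6.82 and 6.63 CPM in MS-444, against 0, 0.639 and 0.712 CPM in DMSO. The prefix Tmem only says that a protein is predicted to cross a membrane. Of the 118 Tmem genes tested outside the set, 17 were called higher and 11 lower, near the 14.4% and 11.1% over all genes tested.

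Bex2, Acyp1 and Dhrs13 complete the set. Bex2, a small protein encoded on the X chromosome and named for brain expression, had 11, 6.20 and 8.22 CPM in MS-444, against 1.12, 0.213 and 0.237 CPM in DMSO. Of its 4 tested relatives, 3 were called higher in MS-444. Bex6 had 92.8 ± 5.31 CPM in MS-444 and 17.6 ± 6.05 CPM in DMSO (log2 fold change 2.2, adjusted p = 0.00282, edgeR). Bex1 had 71.8 ± 12.9 CPM in MS-444 and 8.50 ± 6.11 CPM in DMSO (log2 fold change 2.95, adjusted p = 0.00495, edgeR). Bex3 was higher by 2.60 on the log2 scale (adjusted p = 0.0277, edgeR), lost without any 1 of the MS-444 libraries and without DMSO replicate 2 or 3, at 1.93 to 2.92. Bex4 missed the threshold (log2 fold change 2.35, adjusted p = 0.0580, edgeR) and passed it under 5 of 11 alternatives, DESeq2 among them. The Bex genes resemble each other, and reads may be shared between them. Acyp1, an acylphosphatase, had 19, 11.2 and 13.5 CPM in MS-444, against 1.12, 1.49 and 1.19 CPM in DMSO. Dhrs13, of the short-chain dehydrogenase and reductase family, had the smallest ratio, with 6.20 to 7.16 CPM in MS-444 and at most 1.5 CPM in DMSO. Of 4 other Dhrs genes tested, 0 were higher and 2 lower, Dhrs1 (log2 fold change -0.99, adjusted p = 0.0165, edgeR, lost without MS-444 replicate 2 or 3 at -1.07 and -1.10) and Dhrs3 (-0.89, adjusted p = 0.0385). The call of Dhrs3 was lost with library totals, with no filter and without any 1 library except DMSO replicate 1, at -0.70 to -1.04.

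Relatives of 6 other genes of the set were mostly too low to test. The table held 1 relative of Triml2, 1 of Acyp1, 4 of Kcne3, 3 of Rasl10a and 3 of Calhm6, of which 0 were tested, and 10 of Cxcl16, of which 1 was tested and 0 were called. All counts of relatives and partners called above stand beside 14.4% higher and 11.1% lower over all genes tested.

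**Figure D3:**
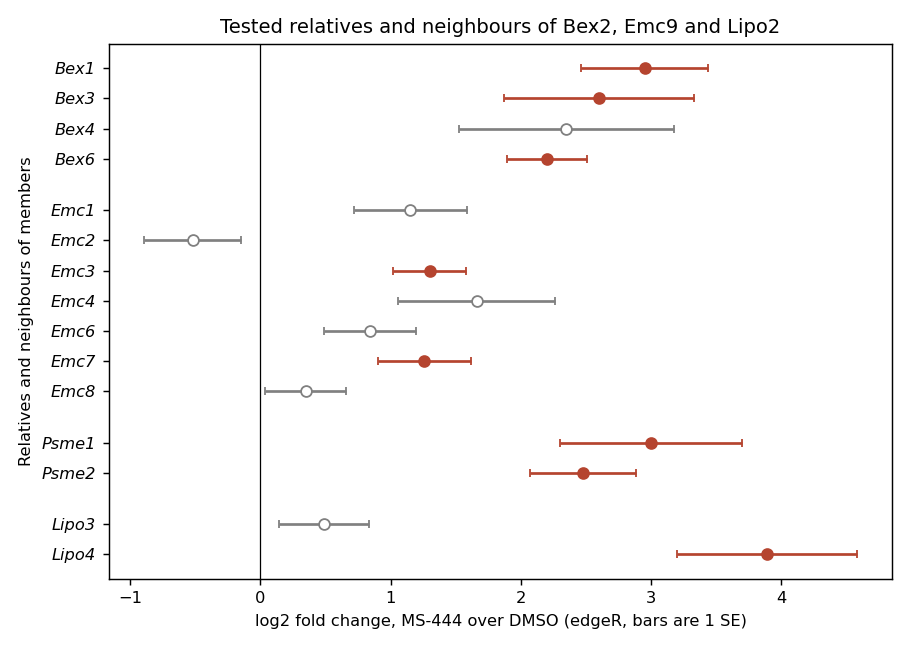
Log2 fold change of MS-444 over DMSO with its standard error (edgeR) for relatives of Bex2, Emc9 and Lipo2 and for the Psme genes beside Emc9; filled red points had an adjusted p under 0.05. Of the 4 Bex genes 3 passed, of the 7 Emc genes 2, both Psme genes, and Lipo4 but not Lipo3.

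Genes next to the 26 on the chromosome were called higher about as often as genes in general. Of 52 distinct nearest tested genes in the GENCODE M21 annotation, 6 (11.5%) were called higher and 1 (1.92%) lower. Over all genes tested the shares were 14.4% higher and 11.1% lower, so lower calls were rarer among these neighbours. The median log2 fold change of the 52 was 0.13. The 6 were Zfp42 beside Triml2, Lipo4 beside Lipo2, Med11 beside Cxcl16, Rps3 beside Map6, Psme2 beside Emc9 and Polr2l beside Tspan4. The calls of Med11 and Rps3 were lost without MS-444 replicate 2, at log2 fold changes of 1.64 and 1.17. Trappc3l, beside Calhm6, was the gene called lower (log2 fold change -1.18, adjusted p = 0.0232, edgeR), a call lost without MS-444 replicate 2 or 3 or DMSO replicate 2, at -1.02 to -1.29. Dad1, beside Trac, averaged 98.5 CPM in MS-444 and 80.5 CPM in DMSO. Of the 26 genes, 15 overlap another annotated gene and 12 overlap one that is in the count table. The same shares over all genes were not counted, so these numbers cannot be called high or low.

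With library totals, the opposite pattern was rarer. By the mirrored rule, 2 genes with kept symbols had at least 6 CPM in each DMSO library and under 2 CPM in each MS-444 library. Chl1, a neural cell adhesion molecule, had 0, 2 and 3 counts in MS-444 and 40, 52 and 47 counts in DMSO. Kcnk18, a potassium channel of the tandem-pore family, had 1, 0 and 1 counts in MS-444 and 43, 65 and 85 counts in DMSO. Among 15718 genes under 2 CPM in each DMSO library, 40 (0.254%) reached 6 CPM in each MS-444 library before symbols were left out, and among 14361 genes under 2 CPM in each MS-444 library, 3 (0.0209%) reached 6 CPM in each DMSO library. At a floor of 2 CPM 336 genes with kept symbols were low in DMSO and 42 low in MS-444, and at 20 CPM there were 3 low in DMSO and 0 low in MS-444. The ceiling and floor were applied to library totals, and TMM factors were 1.046 to 1.106 in MS-444 and 0.9325 to 0.9443 in DMSO. With these factors 18 of the 26 still met both limits, and Spink2, Bex2, Smtn, Emc9, Tmem160, Tspan4, Ndufaf1 and Dhrs13 did not. The mirrored rule was not read with these factors, so the comparison of both directions holds for library totals only.

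**Figure D4:**
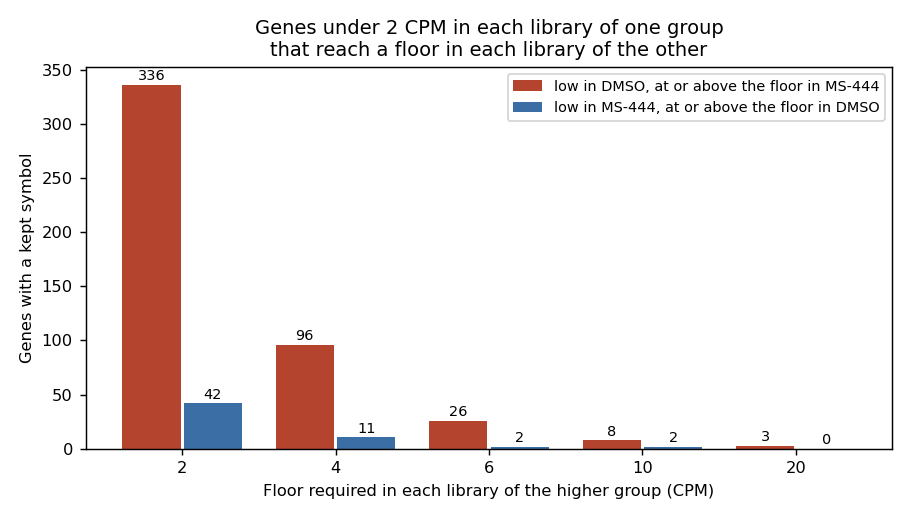
Number of genes with kept symbols that were under 2 CPM in each library of one group and at or above a floor in each library of the other, for floors of 2, 4, 6, 10 and 20 CPM; red is low in DMSO and present in MS-444, blue the reverse. At 6 CPM there were 26 genes present in MS-444 and low in DMSO, and 2 of the reverse kind.

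Complete silence in DMSO was not what marked the set. Of 4020 genes with 0 counts in all DMSO libraries, 1 reached 6 CPM in each MS-444 library. It was the predicted gene Gm13697, left out by its symbol, with 180, 32 and 233 counts in MS-444 replicates 1, 2 and 3 and 0 counts in each DMSO library. Its 9.91 CPM in MS-444 replicate 2 was below the 68.2 and 61.8 CPM of replicates 1 and 3. A count of 0 over the group allows up to 3 counts in all, for counting error only.

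The limits of the rule cut through a continuous range of values. Just inside the floor were Smtn, Ndufaf1 and Tspan4, each at 6.07 CPM in its lowest MS-444 library. Just outside it were Sphk1 and Psme1 at 5.89 CPM and Dmgdh at 5.83 CPM. Just inside the ceiling were Spink2 at 1.92 CPM and Emc9 and Triml2 at 1.87 CPM in the highest DMSO library, and just outside it were Atxn7l3 and Cebpd at 2.13 CPM and Urm1 at 2.14 CPM.

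When the rule was read in 5 libraries only, the library left out gave a value that had not chosen the genes. With MS-444 replicate 1 left out, 58 genes were chosen, and their median there was 5.69 CPM, with 26 of them (44.8%), by construction the set itself, at or above 6 CPM. With MS-444 replicate 2 left out, 42 genes were chosen with a median of 6.97 CPM there, and with MS-444 replicate 3 left out, 34 genes with a median of 8.48 CPM. With DMSO replicate 1 left out, 90 genes were chosen, and their median there was 3.0 CPM. Of the 90, 9 were at or above 6 CPM in DMSO replicate 1. With DMSO replicate 2 or 3 left out, 37 and 36 genes were chosen, with medians of 1.06 and 1.19 CPM in the library left out. Since each choice required under 2 CPM in the other libraries of DMSO, a value above those in the library left out is partly fixed by the choice. Of the 6 libraries, leaving out DMSO replicate 1 changed the number chosen the most.

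**Figure D5:**
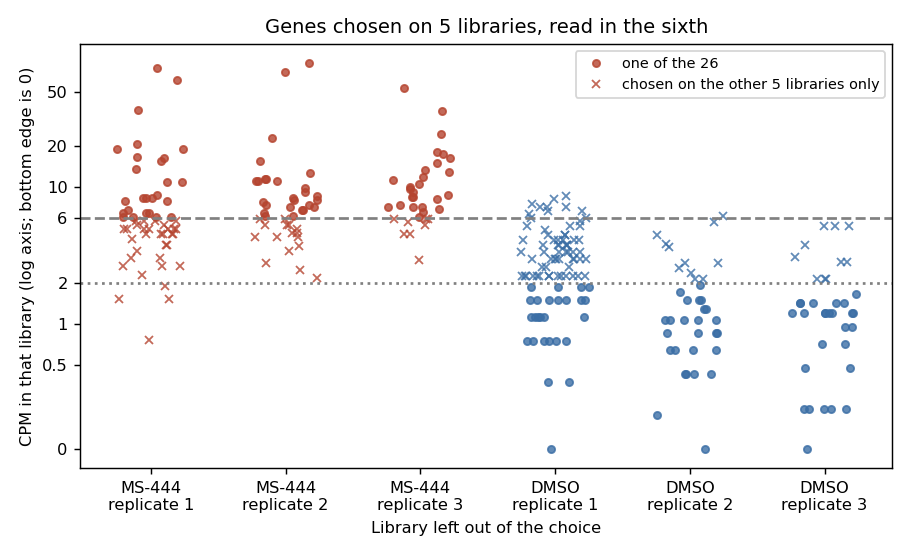
CPM in 1 library of genes chosen on the other 5, on a log axis, with MS-444 libraries in red on the left and DMSO libraries in blue on the right; circles are the 26 transcripts and crosses genes chosen on the other 5 libraries only. Crosses are most numerous in DMSO replicate 1, where 90 genes were chosen.

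Markers of other cell types and stages were read beside the set. Of 14 cumulus and granulosa cell markers, 5 were tested and 1, Amhr2, was higher (17.7 ± 2.52 CPM in MS-444 and 2.47 ± 0.703 CPM in DMSO, adjusted p = 0.00356, edgeR). That list summed to 143 to 207 CPM in MS-444 and 83.3 to 129 CPM in DMSO. Most of that sum was Nr5a2, at 166, 119 and 107 CPM in MS-444 and 82.0, 62.0 and 107 CPM in DMSO. Red blood cell markers summed to 10.6 to 27.0 CPM in MS-444 and 1.90 to 6.81 CPM in DMSO, with 1 of 1 tested higher, and oviduct epithelium markers to 120 to 168 CPM in MS-444 and 27.5 to 83.9 CPM in DMSO, also with 1 of 1 higher. The oviduct sum was nearly all Epcam, at 158, 165 and 117 CPM in MS-444 and 83.5, 31.9 and 26.1 CPM in DMSO. Of the 7 oviduct markers, 5 were under 1 CPM in every library. The calls of Hba-a1 and Epcam were each lost without MS-444 replicate 2 or 3, with log2 fold changes of 1.48 and 1.96 for Hba-a1 and 1.31 and 1.62 for Epcam. They were also lost without DMSO replicate 3, at 1.54 and 1.14, and without DMSO replicate 1 for Hba-a1, at 1.73, and MS-444 replicate 1 or DMSO replicate 2 for Epcam, at 1.36 and 1.20. Of neuron and glia markers 0 of 3 tested were higher and 1 was lower, and of skin keratinocyte markers 0 of 1 passed. Oocyte and zygote markers, of stages before the labelled 2-cell stage, summed to 9007 to 15127 CPM in MS-444 and 23473 to 24303 CPM in DMSO, with 0 of 11 higher and 6 lower. Zbed3 made up most of that sum, at 5184, 8773 and 10238 CPM in MS-444 and 19563, 17401 and 16834 CPM in DMSO. The gap between these sums thus describes mainly Zbed3. Markers of 2-cell genome activation summed to 2830 to 3402 CPM in MS-444 and 1944 to 3118 CPM in DMSO, with 3 of 21 higher and 1 lower. Lineage markers had 3 of 6 higher for the trophectoderm, 4 of 6 for the epiblast and 1 of 3 for the primitive endoderm, and 0 lower. These marker counts, from short lists, stand beside 14.4% higher and 11.1% lower over all genes tested. The part of the marker levels in the 26 transcripts was not tested.

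Gene classes of other kinds were read beside the set by gene lists, some of which held abundant transcripts in DMSO. Of 33 tested olfactory receptor genes, 5 were higher and 4 lower in MS-444, and of 9 tested vomeronasal receptor genes 2 were higher and 2 lower. Germline genes known as targets of DNA methylation summed to 1367 to 1677 CPM in MS-444 and 2335 to 2640 CPM in DMSO, with 1 of 18 higher and 5 lower. Developmental regulators known as Polycomb targets had 3 of 7 tested higher and 0 lower. Acute stress genes had 4 of 13 higher and 0 lower, and xenobiotic response genes 1 of 5 higher and 1 lower. The calls of the receptor lists were divided between both directions, beside 14.4% higher and 11.1% lower over all genes tested.

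The 26 transcripts varied in length and exon number. In the transcript with the longest coding sequence of each gene in GENCODE M21, the median length was 1466 bases in the 25 protein-coding genes, against 2506 bases in the named genes under 2 CPM in each DMSO library and 2966 bases in all genes tested. The median number of exons was 5, against 6 and 9 in those same comparison sets. Among the 25, transcripts ran from 631 bases in Spink2 to 5334 bases in Tbc1d9, and exons from 2 in Calhm6 to 30 in Itgal. GC content was 52.5% in the 25 genes, 52.1% in the low genes and 49.1% in all genes tested. The median 3′ UTR was 320 bases in the 25 genes, 711 bases in the low genes and 966 bases in all genes tested. By chromosome, 5 of the 26 genes lie on chromosome 7 and 5 on chromosome 11 (19.2% each), which hold 7.31% and 7.15% of the genes tested. These chromosomes are named because their counts were the highest, so a share above that of the genes tested is partly fixed by the choice.

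ATTTA, the core of AU-rich elements, was looked for because HuR binds such elements, a feature chosen once the set was known. It occurred in the 3′ UTR of 10 of the 25 genes (40.0%), against 55.9% of the named low genes and 68.3% of all genes tested, whose 3′ UTRs were longer. Per kilobase of 3′ UTR the median was 0 in the 25 genes, 0.779 in the low genes and 1.40 in all genes tested. With a match in only 10 of the 25, that median had to be 0. The upper quartile had the other order, at 3.02 per kilobase in the 25 genes, 2.30 in the low genes and 2.80 in all genes tested. Sp8 held the most, 14 in its 3′ UTR of 2704 bases. Windows of 30 bases are shown for 3 genes with more than 1 match in a window, from GENCODE M21 transcripts, with ATTTA in capitals.
Sp8, bases 1482 to 1511 of the 3′ UTR: gttggatgacATTTAATTTAatggcgcatg
Lipo2, bases 228 to 257 of the 3′ UTR: aaagacctccATTTAATTTAgagtaatgaa
Mafk, bases 1783 to 1812 of the 3′ UTR: acaATTTAatatatggacatttttATTTAa
In Sp8 and Lipo2 one match directly follows the other, and in Mafk they lie apart near the end of the 3′ UTR. A match is a description of letters and not a site of binding.

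RefSeq promoters were matched for 20 of the 26 genes, 28 promoters in all. Trac, Clhc1, Cxcl16, Tmem208, Map6 and Itgal had none in the table used. The median ratio of observed to expected CpG was 0.492 in these promoters, 0.431 in those of the named low genes and 0.753 in those of all genes tested. A ratio of at least 0.6 was found in 9 of the 28 (32.1%), in 35.6% of promoters of the low genes and in 67.7% of those of all genes tested. In CpG content the promoters of the set were thus nearer to those of other low genes than to those of all genes tested. TATAAA was found in 10.7% of the 28, 13.4% of the low genes' promoters and 7.91% of all tested, CCAAT in 50%, 35.5% and 39.2%, and GGGCGG in 42.9%, 42.4% and 59.6%. TGATGNAAT was found in 1 of 28 (3.57%), in Tbc1d9, and in 0.833% of the low genes' promoters and 0.555% of all tested. TGACNNNGC was found in 1 of 28, in Mafk, and in 12.8% and 14.5% of the comparison promoters. With 28 promoters, 1 match amounts to 3.57%, and 7 of them held none of the 5 motifs in the letters searched.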

How the data were processed

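RNA of 2-cell embryos was measured in 6 libraries. The authors deposited 1 table of raw counts of reads for 29139 Ensembl gene identifiers, without normalization. The submitters' processing notes name HISAT2, Cufflinks 2.2.1 and the build mm9. Not given in the sources used here are the counting program, the annotation, the use of strand and the handling of reads with several matches. Since mm9 differs from the build of the annotation, only RefSeq coordinates (GRCm38.p6) are printed.

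Symbols (29127 matched, 12 not), gene classes, exon lengths and 3′ UTRs came from GENCODE M21. CPM in the text uses library totals. Genes that are not among the 26 were compared with edgeR 4.0.16 (R 4.3.3), using filterByExpr with a minimum count of 10 (11864 genes), TMM, the quasi-likelihood test, two-sided, and Benjamini-Hochberg adjustment over the genes tested at 0.05. All 26 passed the filter through their MS-444 values. DESeq2 1.42.0 was an alternative. Deviations from the group means had correlations of 0.055, 0.371 and -0.1 between same-numbered libraries and -0.464 to 0.363 between the others. With 3 libraries per group, these values cannot decide whether the numbers paired the samples. The main test used no pairing, and the replicate block was an alternative.

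Members and lists were chosen with earlier results of these data known. Members given with each library's value were the 12 with the highest MS-444 level, the 12 with the largest ratio and the 3 nearest each limit. Itgal and Sp8 with their libraries' values, and other members, partners, overlapping genes and neighbours were named after their values were seen. Relatives share a symbol's root and are named when called, up to 3 per root.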

Additional observations from a re-analysis of the deposited data

How the results depend on the processing

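The number of transcripts chosen depended on the limits. It was 5 with a DMSO ceiling of 1 CPM and 81 with one of 3 CPM, 96 with an MS-444 floor of 4 CPM and 8 with one of 10 CPM, 40 with all symbols kept and 2 with the mirrored rule. With 1 library left out it ranged from 34 to 90, at 58 without MS-444 replicate 1, 42 without MS-444 replicate 2 and 90 without DMSO replicate 1. Thinning to the smallest library gave 29, of which 20 were among the 26. The log2 ratios of the 26 reversed under none of the scalings or left-out libraries tried. The rule fixed that outcome for left-out libraries, with at least 6 CPM in each MS-444 library and under 2 CPM in each DMSO library. The scalings moved the ratios too little to reverse any. Ratios moved over 1.5-fold were, without DMSO replicate 1, Mup3 (6.61), Bex2 (5.23), Tmem208 (4.72), Emc9 (3.44) and Itgal (3.38), and, without DMSO replicate 3, Cxcl16 (4.64). The summed CPM ratio of 14.9 moved by less than the spread in each alternative run.

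Genes called by edgeR numbered 1706 higher and 1322 lower. Leaving out 1 library gave 659 to 2099 higher and 500 to 1721 lower. The lowest counts came without MS-444 replicates 2 and 3, at 659 and 671 higher and 552 and 500 lower, with 1044 and 880 higher without DMSO replicates 2 and 3. Library totals gave 881 lower. The cause was not tested. The replicate block gave 1971 higher and 1434 lower, DESeq2 1843 and 1561, and no filter 2141 and 1563. Of the 32 called genes tested for the text, 15 were called in each of 11 alternatives. Of genes near 0 that did not pass, signs turned with library totals for Nfe2l1 (0.14), Mafg (0.13) and Sp9 (0.18), and under the replicate block for Sp9 (0.21). With 1 library left out, log2 fold changes lay on both sides of 0 for Nfe2l2 (-0.076 to 0.46), Sp4 (-0.075 to 1.06), Nfe2l1 (-0.37 to 0.067), Mafg (-0.64 to 0.14) and Sp9 (-0.53 to 0.46). Depth limits the DMSO values, which rest on 5 to 17 counts per gene.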
